A study of Mus musculus with 6 samples.

Results

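The intervals of the 4 myogenic regulatory factor genes, Myod1, Myog, Myf5 and Myf6, were examined in a series that maps ubiquitylated histone H2B (H2Bub) by chromatin immunoprecipitation and sequencing in C2C12, an immortalised mouse myoblast line. They were chosen by name as mm9 gene intervals. The rule used no measured value, though earlier results of these data were known. They are 4 regions beside 659744 windows of 4 kb that cover chromosomes 1 to 19 and X. The intervals were chr7:53631000-53635500 for Myod1, chr1:136186000-136190000 for Myog, chr10:106919500-106923500 for Myf5 and chr10:106929500-106932500 for Myf6. Myotubes (MT, 3 libraries) had been switched at full confluence to 2% horse serum and collected after 96 h, with a medium change at day 2. Myoblasts (MB, 3 libraries) grew in 10% fetal bovine serum and were collected at about 40% confluency. All 6 libraries came from the same line, from chromatin cut with micrococcal nuclease to mostly single nucleosomes, and from 1 antibody clone. The labels name the line C2C12 as cell type and C1C12 in the source names and protocols. They give every library its own antibody lot number, but the numbers are consecutive and may not record different lots, and if they do, lot and library cannot be told apart. The labels do not say that replicates were separate cultures, so the p-values measure the spread between these libraries, which may be technical.

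The myogenic regulatory factors are basic helix-loop-helix proteins that pair with E proteins and bind the E-box, CANNTG, in the control regions of muscle genes. Myf5 and Myod1 commit cells to the muscle lineage, Myog drives terminal differentiation and is switched on in C2C12 cells when serum is withdrawn, and Myf6 (also called MRF4) acts in commitment and again in maturing fibres. H2Bub is placed by the Rnf20 and Rnf40 ubiquitin ligase as RNA polymerase II elongates, and it lies over the bodies of transcribed genes. The question the series puts is how H2Bub changes as myoblasts become myotubes, and these genes are those that define both states. The files hold no RNA, so the cell labels were not checked against transcript levels.

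The RefSeq promoter table (build GRCm38.p6) held Myog and Myf5, and the 250 bases before the start of each are shown because Myog is the family member known for its switch between the 2 states and Myf5 is the member whose myoblast density was highest. Capitals mark E-boxes, CANNTG, which read the same on both strands. The Myog stretch lies at chr1:134289754-134290003 on the plus strand and the Myf5 stretch at chr10:107486135-107486384 on the minus strand, both in GRCm38.p6 and not in the mm9 coordinates of the read files.
Myog: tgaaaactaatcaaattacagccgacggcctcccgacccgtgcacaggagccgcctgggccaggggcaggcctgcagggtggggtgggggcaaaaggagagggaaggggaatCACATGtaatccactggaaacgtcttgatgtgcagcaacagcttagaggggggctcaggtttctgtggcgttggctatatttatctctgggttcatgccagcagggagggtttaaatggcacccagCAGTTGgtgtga
Myf5: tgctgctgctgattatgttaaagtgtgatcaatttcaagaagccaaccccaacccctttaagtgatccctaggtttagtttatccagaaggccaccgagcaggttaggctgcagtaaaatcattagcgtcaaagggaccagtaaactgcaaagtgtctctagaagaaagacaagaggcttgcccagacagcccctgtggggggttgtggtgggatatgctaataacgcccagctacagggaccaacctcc

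Myog held 2 E-boxes, CACATG beginning 138 bases and CAGTTG beginning 12 bases before the start. Myf5 held 0 in the same stretch. Of 32851 promoters of the same length, 66.2% held at least 1 E-box and 31.8% at least 2, so neither count was rare. The Myog stretch had a GC content of 56.4% and 7 CpG, and the Myf5 stretch 48.8% and 3 CpG. These are letters in a window and say nothing of binding.

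None of the 4 genes carried a listed H2Bub peak in either state. The MT list and the MB list each had 0 peaks in every interval, and 0 again when 20 kb to either side was added. The closest peak of the MT list lay 421 kb from Myod1, 36.2 kb from Myog, 53.1 kb from Myf5 and 63.1 kb from Myf6. The closest peak of the MB list lay 257 kb from Myod1, 54.8 kb from Myog, 677 kb from Myf5 and 668 kb from Myf6. The read files have sequence in all 4 intervals: with the 6 libraries joined, the longest stretch without a read start was 328 bp in Myod1, 418 bp in Myog, 209 bp in Myf5 and 195 bp in Myf6. Reads were thus spread along each interval, apart from such gaps. The Myog gap lay from 2452 to 2870 bp after the interval start. Densities below are over the full length of each interval, gaps included. No source used here states the caller or threshold behind the lists, and the comparison below is made on read counts.

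The MT libraries held 8767810, 9251714 and 14480532 reads and the MB libraries 9293327, 10500415 and 15903500, with 0 repeated positions in any of them. In MT 74.7%, 78.8% and 74.5% of reads fell in 10 kb windows free of peaks of both lists, and in MB 46.2%, 40.4% and 48.5% did. A region that holds only background reads is therefore higher in MT when libraries are scaled to all reads, and each change below is also given with libraries scaled to their peak-free reads. In bulk chromatin, a change in some of the cells and a smaller change in all of them cannot be told apart. Read densities are reads per kb per 1000000 reads (RPKM) on chromosomes 1 to 19 and X.

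Myod1, the commitment factor expressed in growing C2C12 cells, had the lowest myotube density of the family. It held 11, 11 and 20 reads in MT and 6, 5 and 24 in MB. The densities were 0.279, 0.264 and 0.307 RPKM in MT and 0.144, 0.106 and 0.336 RPKM in MB. MB replicate 3 lay above all the MT libraries and the other two MB libraries below them, so the groups overlapped. The means were 0.284 ± 0.0217 RPKM in MT and 0.195 ± 0.123 RPKM in MB (SD, n = 3 each), a log2 fold change of 0.45 (SE 0.38, 95% interval -0.31 to 1.21, limma voom adjusted p = 0.277). Without MB replicate 3 the log2 fold change was 1.16 (adjusted p = 0.0930), and with peak-free scaling it was -0.33 (adjusted p = 0.658, both limma voom). Widening the interval by 1 kb to each side gave 0.75 with an adjusted p of 0.0310 (limma voom, all reads). Neither a direction nor a call could be fixed for Myod1.

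Myog, the differentiation factor, had 14, 14 and 40 reads in MT and 4, 8 and 17 in MB. In densities this was 0.399, 0.379 and 0.691 RPKM in MT and 0.108, 0.191 and 0.267 RPKM in MB. All the MT libraries lay above all the MB libraries, with MT replicate 3 far above the other two. The means were 0.490 ± 0.175 RPKM in MT and 0.189 ± 0.0799 RPKM in MB (SD, n = 3 each). Scaled to all reads, Myog passed the test with a log2 fold change of 1.22 (SE 0.38, 95% interval 0.47 to 1.98, limma voom adjusted p = 0.00731). The call was lost with peak-free scaling (0.45, 95% interval -0.27 to 1.18, limma voom adjusted p = 0.508). It was lost as well without MT replicate 3 (0.81, limma voom adjusted p = 0.0952) and with 500 bp taken off each end of the interval (0.98, limma voom adjusted p = 0.0603).

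The Myf5 and Myf6 intervals are the least surely placed, since a coarse check on gene spacing put both gene centres just past the higher end of the interval. Myf5, the other early commitment factor, held 17, 18 and 28 reads in MT and 15, 12 and 29 in MB. The densities were 0.485, 0.487 and 0.484 RPKM in MT and 0.404, 0.286 and 0.456 RPKM in MB. The MT libraries were nearly equal, and the groups did not overlap. The means were 0.485 ± 0.00152 RPKM in MT and 0.382 ± 0.0872 RPKM in MB (SD, n = 3 each). The log2 fold change did not pass the test with all reads (0.34, SE 0.27, 95% interval -0.21 to 0.88, limma voom adjusted p = 0.257). It was -0.41 with peak-free scaling (95% interval -0.95 to 0.13, limma voom adjusted p = 0.384). The MT spread is smaller than the counting error of 17 to 28 reads, so it does not give the precision of the measurement.

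Myf6, which neighbours Myf5, held 13, 16 and 21 reads in MT and 7, 4 and 11 in MB. The densities were 0.495, 0.577 and 0.484 RPKM in MT and 0.251, 0.127 and 0.231 RPKM in MB, without overlap between the groups. The means were 0.518 ± 0.0509 RPKM in MT and 0.203 ± 0.0666 RPKM in MB (SD, n = 3 each). Scaled to all reads, Myf6 passed the test with a log2 fold change of 1.29 (SE 0.42, 95% interval 0.45 to 2.12, limma voom adjusted p = 0.00972). The call held without each library in turn (adjusted p from 0.0174 to 0.0468) and was lost with peak-free scaling (0.54, 95% interval -0.24 to 1.33, adjusted p = 0.444, limma voom throughout).

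**Figure D1:**
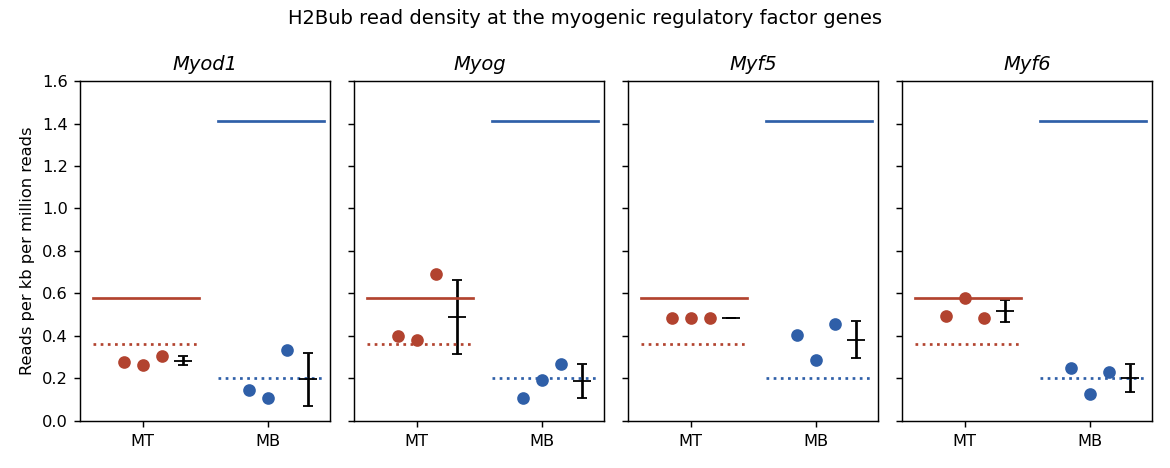
H2Bub read density (RPKM) at each gene in the 3 MT and 3 MB libraries (points), with mean and SD (black); the dotted line is the median 4 kb window without a peak and the solid line the median window with an MB peak, each averaged over the libraries of the group. The MB points lie between 0.106 and 0.456, around the dotted line at 0.201 and under the solid line at 1.41.

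So 2 of the 4 genes were called higher in MT and 0 lower, where 47.7% of all 4 kb windows tested were called higher and 13.7% lower. Among windows without a peak the shares were 55% higher and 1.69% lower. The median log2 fold change was 0.71 over all windows and 0.79 over those without a peak. Relative to the median of all windows, Myog stood 0.51 and Myf6 0.58 above it on the log2 scale, while Myod1 was at -0.26 and Myf5 at -0.37. Among all windows Myf6 ranked at the percentile 91.9, Myog at 89.1, Myod1 at 32.5 and Myf5 at 27.9. Densities of 3 genes did not overlap between groups, with MT above MB each time, as in 50.8% of all windows. With peak-free scaling the window median was -0.029, 0.629% of windows were called higher, 20.3% lower and 0 of the 4 genes either way. Over peak-free density, Myf6 lay above MB in all MT libraries (non-overlap in that direction in 7.73% of windows) and Myf5 below (23% of windows). The share of windows called higher depends on the libraries: without MB replicate 2 it was 136381 of 495595 windows and without MB replicate 3 it was 143986 of 475211, against 228293 of 479054 with all libraries. With 4 genes, 2 called higher cannot be set apart from any of these shares.

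**Figure D2:**
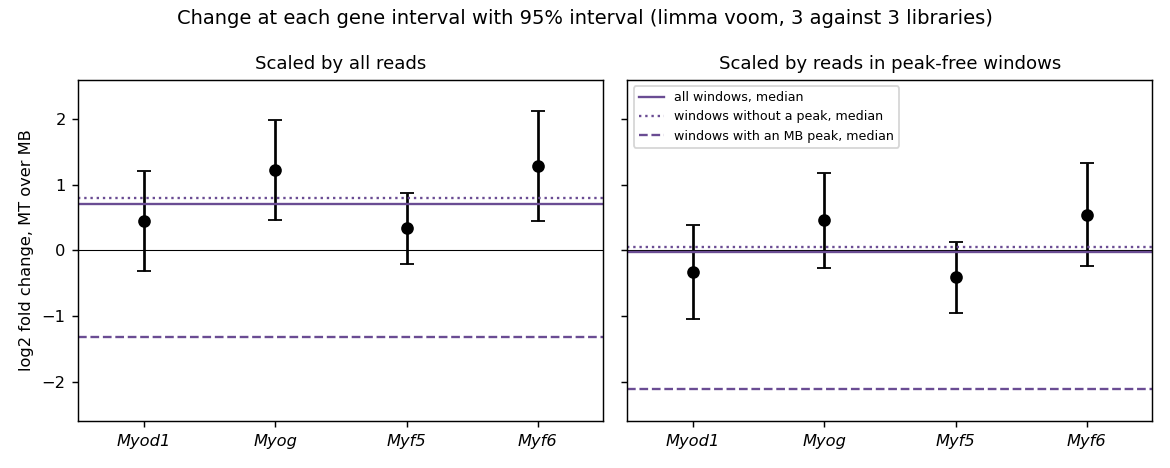
The log2 fold change of MT over MB with its 95% interval (limma voom, n = 3 each) for the 4 genes, scaled by all reads (left) or by peak-free reads (right); lines give window medians. The medians of all windows are 0.71 on the left and -0.029 on the right, and on the right each gene's interval includes 0.

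Windows with a peak of the MB list had a median log2 fold change of -1.33 with all reads and -2.11 with peak-free scaling. The lowest estimate for a gene of the family under either scaling was -0.41, for Myf5, and the lowest bound of a 95% interval was -1.05, for Myod1. The MB list was drawn from these libraries, so its windows had to be high in MB.

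The levels themselves lay mostly where windows without a peak lie. The genes hold no listed peak and the lists come from the same series, so this follows in part from how windows were classed. In MB the 12 values (4 genes, 3 libraries) lay between the percentiles 21.8 and 91.4 of windows without a peak, where the median window had 0.201 ± 0.0296 RPKM. The same 12 values lay at or under the percentile 1.44 of windows with an MB peak, whose median was 1.41 ± 0.0997 RPKM. At that median density an MB library would have held 57.4 to 95.6 reads in Myod1, 51.0 to 85.0 in Myog and in Myf5, and 38.3 to 63.8 in Myf6. The highest count seen in MB was 29, for Myf5 in replicate 3.

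In MT the classes lay closer together. The median was 0.361 ± 0.0181 RPKM for windows without a peak, 0.669 ± 0.0878 RPKM for windows with an MT peak and 0.579 ± 0.0798 RPKM for windows with an MB peak (SD, n = 3 each). Of the 12 MT values, 11 lay between the 5th and 95th percentile of windows without a peak, and the exception was Myog in replicate 3, at the percentile 96.2. Against windows with an MT peak the MT values reached from the percentile 1.20 to 52.0. Of the 12, 3 were under the 5th, and these were the 3 Myod1 values. In MB the densities of the genes lay apart from those of windows with an MB peak, which follows in part from the listing. In MT the Myod1 values lay apart from windows with an MT peak in each library. The values of the other genes lay within the range of such windows, from the percentile 6.28 upward. All but Myf6 in replicate 2 were under their median.

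Within MT the order of mean density was Myf6, Myog, Myf5 and Myod1. Neighbours in that order overlapped in their library values, except that all Myf5 values lay above all Myod1 values. Within MB the order was Myf5, Myf6, Myod1 and Myog, in which all Myf5 values lay above all Myf6 values and the other neighbours overlapped. Depth cancels in the ratio of a pair of genes within a library, and all 6 pairs were compared between MT and MB. The log2 ratio of Myf5 to Myf6 was -0.028, -0.24 and 0.00012 in MT and 0.68, 1.17 and 0.98 in MB. Myf5 and Myf6 were thus close to level in the myotube libraries, whereas Myf5 was the denser in each myoblast library. The difference was -1.04 (two-sided exact permutation test, p = 0.1, below which 3 against 3 cannot go, adjusted p = 0.3 over the 6 pairs). With intervals widened by 1 kb to each side, this difference was -0.74 (exact permutation test, p = 0.2). The groups then overlapped, with MB replicate 1 at 0.15 and MT replicate 3 at 0.32. Myog over Myf5 differed by 1.04 at p = 0.1 (exact permutation test, adjusted p = 0.3), with mean log2 ratios of -0.043 in MT and -1.09 in MB, and by 0.64 without MB replicate 1. For the other pairs the exact adjusted p was 0.4 to 1, and leaving out libraries turned the sign of Myog over Myf6, whose difference was 0.0077.

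**Figure D3:**
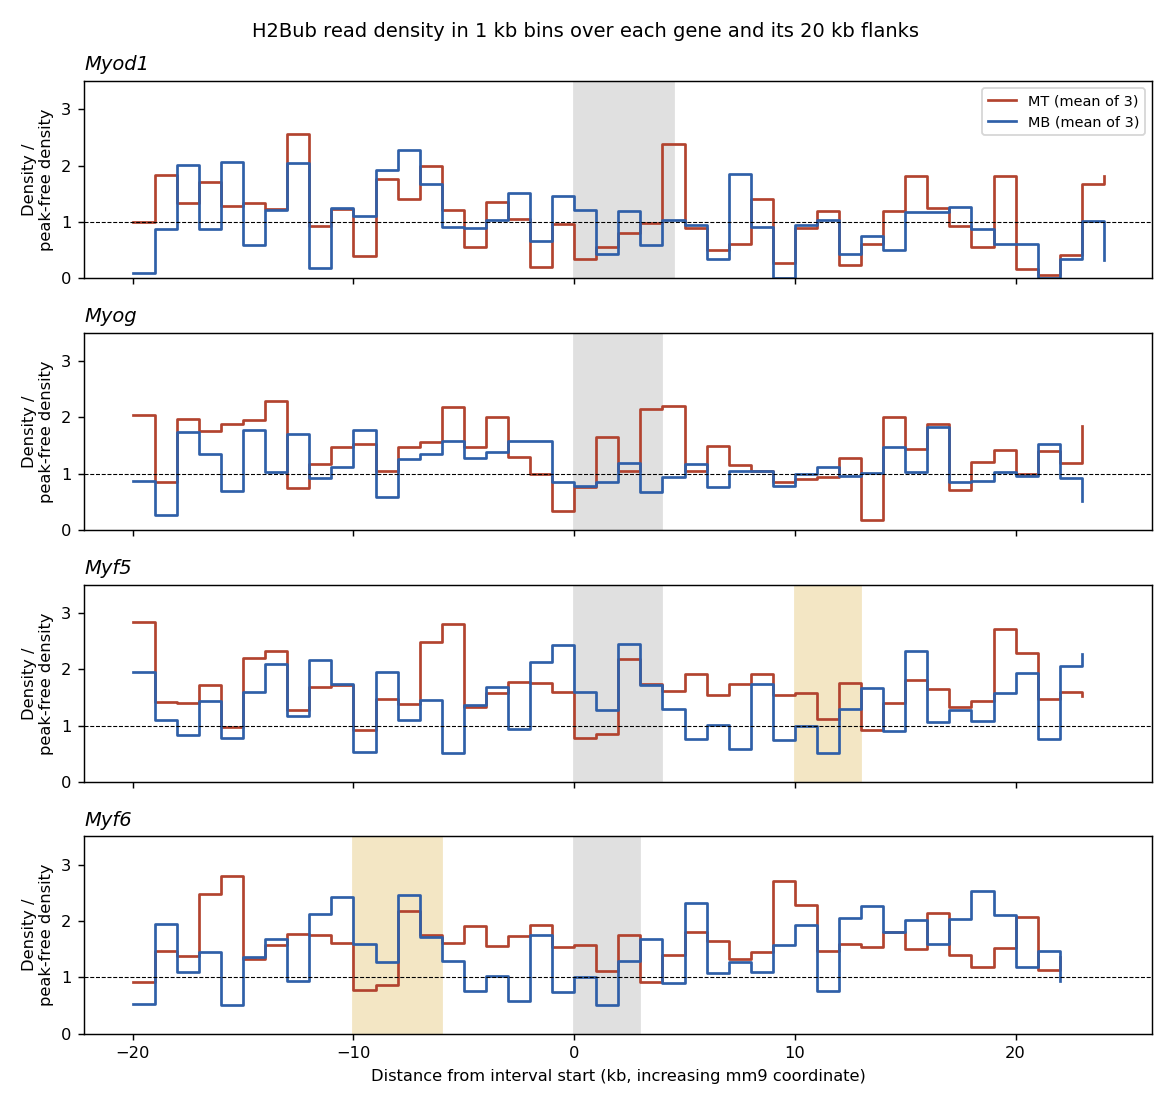
Read density in 1 kb bins over each gene (grey) and 20 kb to either side, as a multiple of the peak-free density of each library and averaged over 3 libraries, for MT and MB; the sand-coloured band is the other gene of the Myf5 and Myf6 pair. The fullest bin inside a gene lies under the fullest bin of its flanks in both groups, except for Myf5 in MB, where they are level at 2.45 and 2.43.

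Along the genes no summit was seen. In 500 bp bins, with the 3 libraries of a group added, the fullest bin inside the gene held 10 reads in MT and 7 in MB for Myod1, and 18 in MT and 9 in MB for Myog. It held 14 in MT and 10 in MB for Myf5, and 11 in MT and 8 in MB for Myf6. The fullest bin of the 20 kb flanks held 20, 19, 20 and 18 reads in MT and 12, 11, 12 and 12 in MB for the genes in the same order. The fullest bin over both flanks thus exceeded the fullest bin in the gene, though the flanks have 80 bins and the genes 6 to 9. Plus and minus strand reads were close to even, at 41 and 36 for Myod1, 51 and 46 for Myog, 66 and 53 for Myf5, and 39 and 33 for Myf6 over all libraries.

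The flanks were called more often than the genes, and each is wider and holds more reads. Scaled to all reads, all 8 flanks of 20 kb were called higher in MT, where 76.4% of all 20 kb windows and 92% of those without a peak were, around a median log2 fold change of 0.80. The flank changes ran from 0.71 above Myf6 (0.566 ± 0.158 RPKM in MT and 0.350 ± 0.0887 in MB, limma voom adjusted p = 0.000912) to 1.09 above Myf5 (0.576 ± 0.136 RPKM in MT and 0.278 ± 0.0719 in MB, limma voom adjusted p = 1.10e-05), where "above" means at higher coordinates. Myog had 0.526 ± 0.0572 RPKM in MT and 0.266 ± 0.0630 in MB in its lower flank, and 0.440 ± 0.0506 in MT and 0.228 ± 0.0971 in MB in its higher flank. Myf5 itself, at 0.34, lay between flanks at 0.98 and 1.09. With peak-free scaling Myf5 was at -0.41 and its flanks at 0.22 and 0.32, opposite in sign, and the difference between gene and flank was not tested in this fit. Under that scaling 0 of the 8 flanks were called (log2 fold changes from -0.090 to 0.32, limma voom adjusted p from 0.269 to 0.923), where 2.29% of 20 kb windows were called higher and 21% lower. The higher flank of Myf5 and the lower flank of Myf6 each include the other gene. Without it the changes of these flanks under this scaling were 0.30 and 0.39 with no call.

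Against peak-free windows within 250 kb, Myf6 in MT and Myf5 in MB had a density ratio above 1 in all 3 libraries. Myod1 in MT and Myog and Myf6 in MB had a ratio under 1 in all 3. Not all of these sides were firm. Over the 20 kb flanks without Myf5, Myf6 in MT was under 1, at 0.934, 0.824 and 0.947. With intervals widened by 1 kb to each side, Myod1 in MT replicate 2 was at 1.04 and Myf6 in MB replicate 1 at 1.05. The density of each gene was divided by that of the peak-free 4 kb windows within 250 kb, which needs no scaling between libraries and carries the local chromosome copy number in both terms. For Myod1 the ratios were 0.677, 0.692 and 0.689 in MT and 0.675, 0.456 and 1.08 in MB. The ratio was under 1 in every library except MB replicate 3, though each library's own Poisson interval included 1. With reads of a group added, 42 MT reads stood against 61.2 expected (ratio 0.686, 95% Poisson interval 0.495 to 0.928) and 35 MB reads against 42.1 (0.832, 0.580 to 1.16). These intervals cover counting error only.

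The Myog ratios were 0.862, 0.824 and 1.41 in MT and 0.415, 0.746 and 0.766 in MB. The groups did not overlap, and the pooled ratios were 1.11 (0.858 to 1.40) in MT and 0.681 (0.456 to 0.979) in MB. The Myf5 ratios were 0.995, 0.921 and 1.04 in MT and 1.31, 1.24 and 1.68 in MB. The pooled Myf5 ratios were 0.991 (0.762 to 1.27) in MT and 1.46 (1.10 to 1.90) in MB. The Poisson intervals of MB replicates 1 and 2 taken alone included 1. Over the 20 kb flanks without Myf6, the Myf5 ratios were 0.864, 0.724 and 0.872 in MT and 1.08, 1.12 and 1.66 in MB. The Myf6 ratios were 1.01, 1.09 and 1.04 in MT and 0.816, 0.546 and 0.838 in MB, with pooled values of 1.05 (0.776 to 1.38) in MT and 0.758 (0.475 to 1.15) in MB.

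The difference in this ratio between MT and MB was -0.051 for Myod1, 0.39 for Myog, -0.43 for Myf5 and 0.31 for Myf6. In a two-sided exact permutation test Myog, Myf5 and Myf6 each had p = 0.1, the floor of the design, so none could reach 0.05 (adjusted p = 0.133 over the 4 genes), and for Myod1 the exact p was 1. The Myog difference was 0.20 without MT replicate 3, and 0.25 with overlapping groups (exact p = 0.3) when the 20 kb flanks served as surroundings. The Myf6 difference was 0.16 with the interval widened by 1 kb to each side (exact p = 0.4). Myf5 and Myf6, although side by side, went in opposite directions on this scale. Myog and Myf6 had the higher ratio in MT, and Myf5 in MB.

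**Figure D4:**
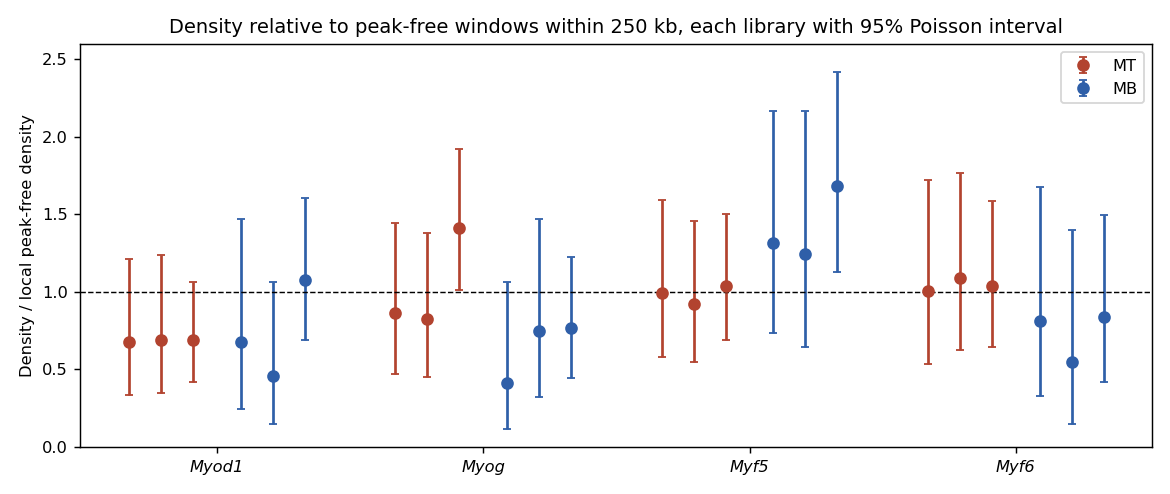
Density of each gene over that of peak-free 4 kb windows within 250 kb, in each MT and MB library, with 95% Poisson intervals that cover counting error only; 1 (dashed) is the local background. Only Myog in MT replicate 3 and Myf5 in MB replicate 3 have intervals wholly above 1, at 1.41 and 1.68.

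The surroundings of the genes differed. Within 250 kb of Myod1 there was no bin of 5 kb with a peak of either list. Around Myog 4 of 100 bins had an MT peak and 20 had an MB peak. Peaks of the MB list with at most 3 kb between them were taken as 1 stretch, and stretches of at least 10 kb as MB domains. The MB domain nearest to Myog, chr1:136244783-136258107, held 13 peaks over 13.3 kb and began 54.8 kb above the gene. Its density was 0.648 ± 0.0382 RPKM in MT and 2.29 ± 0.326 RPKM in MB (SD, n = 3 each), although that domain was drawn from MB peaks and its direction follows in part from that choice. Around Myf5 and around Myf6 7 of 100 bins had an MT peak and 0 had an MB peak. The MT peaks nearest to them were small: the one 53.1 kb below Myf5 held 2, 1 and 8 reads in MT and 0, 0 and 1 in MB. Myog was thus the gene of the family with an MB domain within 250 kb, while its own interval held no listed peak. Against windows without a peak, the Myog interval lay at the percentiles 21.8 to 62.0 in MB and 47.4 to 96.2 in MT. Peak-free density of the whole chromosome, relative to the genome, was 0.695 ± 0.0195 in MT and 0.733 ± 0.0341 in MB on chromosome 7, which holds Myod1. On chromosome 10, which holds Myf5 and Myf6, it was 1.23 ± 0.0130 in MT and 1.13 ± 0.0180 in MB, and on chromosome 1, which holds Myog, 1.05 ± 0.00957 in MT and 1.02 ± 0.0170 in MB. The part of chromosome copy number in these values was not tested.

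**Figure D5:**
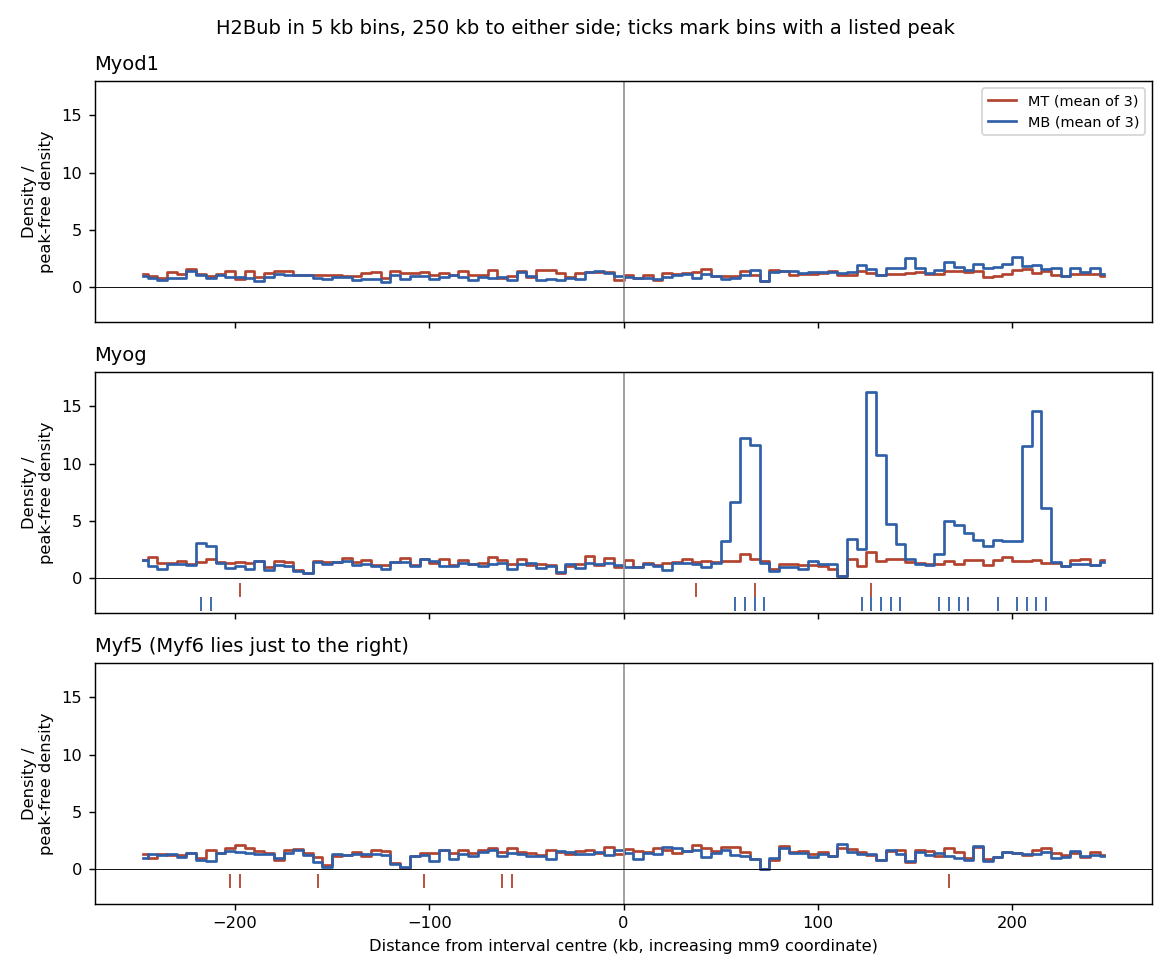
H2Bub density in 5 kb bins within 250 kb of Myod1, Myog and Myf5, as a multiple of peak-free density (mean of 3 MT and of 3 MB libraries), with ticks under bins that hold a peak of the MT or MB list. The MB line reaches 16.3 near Myog, in a bin centred 127.5 kb above it where MT is at 2.32, and stays under 3 around Myod1 and Myf5.

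An mm9 annotation was not used here, so the place of the intervals was checked by sliding the RefSeq GRCm38 order and spacing of genes within 6 Mb along the MB read density. The best match put the gene centre -0.467 kb from the interval centre for Myod1, -0.724 kb for Myog, 2.42 kb for Myf5 and 1.79 kb for Myf6, in steps of 1 kb. The correlations at the best match were 0.350, 0.296, 0.304 and 0.304, against 0.249, 0.189, 0.194 and 0.193 at the best place beyond 50 kb. For Myf5 and Myf6 the check would put the larger part of the gene past the higher end of its interval, in the flank, which also held 0 peaks of either list. The best match was set only against places beyond 50 kb, so whether the check resolves offsets of a few kb was not tested. Being neighbours, Myf5 and Myf6 were not checked independently. How far the values of these intervals stand for the whole genes is therefore uncertain, for Myf5 and Myf6 above all. In RefSeq Myod1 lies between Otog and Kcnc1, Myog between Adora1 and Ppfia4, and Myf5 and Myf6 next to each other between Lin7a and Ptprq.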

How the data were processed

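H2Bub was measured in 3 MT and 3 MB libraries. The authors deposited, per library, the chromosome, position and strand of each read, and per group a list of peak boundaries without scores, on mm9 per the submitters' processing notes. These values are positions, so no count table or p-value of the authors was used. No source used here states the aligner, filters, peak caller or pooling. Positions are listed at most once per library, which can compress dense regions. Reads of different libraries shared 1.29% to 5.61% of positions.

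Reads were counted in the 4 intervals, their 20 kb flanks and consecutive 4 kb and 20 kb windows of chromosomes 1 to 19 and X. limma 3.58.1 (voom, R 4.3.3) compared MT with MB, two-sided, over all windows and intervals with a mean of at least 10 reads, with Benjamini-Hochberg adjustment over all of them and a threshold of 0.05. All 4 intervals passed the filter. Library size was all reads, or, as the main alternative, reads in 10 kb windows free of peaks. Ratios within a library were compared by exact permutation tests. Poisson intervals (SciPy 1.17.1) are exact at 95% and cover counting error only. The depth of 8767810 to 15903500 reads gave 4 to 40 reads per interval and library, which limits the precision. The routine was tested on simulated counts in which few windows changed. That test does not cover the difference in peak-free share between MT and MB. Counting and figures used NumPy 2.4.6, pandas 2.3.3 and matplotlib 3.10.9 in Python 3.11.15.

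All 4 genes are named whatever their values, and no other gene is named by pattern. The members and lists were chosen with earlier results of these data known. Alternatives covered scaling, leaving out each library, a replicate block, filter, read shift, interval bounds, window size and limma-trend. Alternatives combining peak-free scaling with a flank cut or with the block for window counts were added after seeing the data. Replicate numbers of MT and MB were not taken to pair libraries: deviations of same-numbered libraries correlated at 0.00488, -0.0971 and 0.0984.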

Additional observations from a re-analysis of the deposited data

How the results depend on the processing

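With reads in peak-free windows as library size, the log2 fold change was -0.33 for Myod1 and -0.41 for Myf5, both turned in sign, and 0.45 for Myog and 0.54 for Myf6, both without a call (limma voom adjusted p 0.658, 0.384, 0.508 and 0.444). The flanks gave -0.035 and 0.29 for Myod1, 0.19 and 0.14 for Myog, 0.22 and 0.32 for Myf5 and 0.23 and -0.090 for Myf6, in order of coordinate, and 0.30 and 0.39 for the Myf5 and Myf6 flanks that face each other with the other gene left out. Windows of 4 kb called higher numbered 3011 under this scaling and 228293 with all reads. Leaving out 1 library at a time, the log2 fold change ran from 0.18 to 1.16 for Myod1, 0.81 to 1.63 for Myog, 0.16 to 0.51 for Myf5 and 1.08 to 1.46 for Myf6 with all reads. It ran from -0.53 to 0.33, 0.088 to 0.83, -0.51 to -0.32 and 0.42 to 0.62 with peak-free scaling. MB replicate 3 decided the sign for Myod1 there, and MT replicate 3 the call for Myog. Windows called higher ran from 136381 (without MB replicate 2; 143986 without MB replicate 3) to 197318, and windows called lower from 55005 to 62705. The cause was not tested.

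The replicate block gave 0.26 for Myod1, 1.31 for Myog, 0.32 for Myf5 and 1.21 for Myf6 and changed no call with all reads. With peak-free scaling the block gave -0.38, 0.60, -0.40 and 0.49, with 1916 windows higher and 100286 lower (65403 lower with all reads and no block). Widening by 1 kb brought Myod1 past the threshold (0.75), and narrowing by 500 bp lost Myog (0.98), while narrowed Myod1 and Myf6 fell under the filter and gave no value. The difference of Myod1 over its local background changed sign with windows within 1000 kb (0.041), with the widened interval (0.040) and without MB replicate 3 (0.12, over a range of -0.19 to 0.12). The log2 ratio of Myog over Myf6 changed sign when narrowed (-0.56) and without MB replicate 1 (-0.53) or MT replicate 3 (-0.32), over a range of -0.53 to 0.37. No other alternative changed a direction or a call among the gene, flank, local and pair results, and the peak counts stayed at 0. The depth of 4 to 40 reads per gene and library limits every value.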
